A study of Mus musculus with 2 samples.

Results

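The cadherin and protocadherin genes were followed through the nuclei of mouse femur bone marrow stroma. The genes were chosen by name: the numbered Cdh and Pcdh genes and the numbered members of the Pcdha, Pcdhb, Pcdhga and Pcdhgb gene clusters. This gave 86 of the 32293 genes measured, of which 41 held at least 20 RNA molecules (UMIs) over the nuclei and are described. Of the other genes, 34 held 1 to 19 UMIs each, 198 in all, and 11 held none. The genes just below the minimum were Pcdhga2 with 17 UMIs and Pcdhgb2 and Pcdhb13 with 14 each, and those just above it were Pcdhga1 with 23 and Pcdhb21 with 25.

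The 10x Multiome assay read RNA and accessible chromatin (ATAC) of the same single nuclei. The mice were 21 days old, carried Prrx1-cre and 1 R26R-tdTomato allele, and gave femurs that were dissociated after the distal growth plate and the proximal end had been taken off, from which tdTomato+ cells were sorted by flow cytometry. Per the study's methods, soft tissue was taken away and the periosteum scraped off femurs meant for marrow stroma, so periosteal fibroblast-like names nuclei by their markers and not by where they lay. The Prrx1 enhancer drives Cre in limb mesenchyme, so cells of that origin and their descendants carry the red reporter, while blood and most vessel lining cells arise elsewhere. There was 1 RNA library and 1 ATAC library with shared barcodes and no second group of mice, so nuclei are not replicates, no test was possible, and intervals cover counting error only.

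Classical cadherins are calcium-dependent adhesion proteins. Their extracellular domains bind cadherins on the next cell, and their tails hold beta-catenin, p120 catenin and, through alpha-catenin, the actin skeleton. Protocadherins share the cadherin repeats but not this catenin-binding tail. The Pcdha, Pcdhb and Pcdhg genes lie in tandem clusters, where each variable exon has its own promoter and, in Pcdha and Pcdhg, is spliced to shared constant exons. In bone, Cdh2 (N-cadherin) and Cdh11 (OB-cadherin) are the classical cadherins of osteoblasts.

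The 4481 nuclei had at least 500 nonmitochondrial UMIs and 1000 ATAC counts in peaks, and held 16966049 UMIs and 171471736 ATAC counts. The median nucleus had 2257 UMIs, 33981 ATAC counts and 16.4% mitochondrial UMIs. Nuclei were placed in classes by marker genes, none of which was a cadherin, when at least 4 UMIs from at least 2 markers of 1 list exceeded 3 times the level expected from free RNA, and 2433 (54.3%) passed for 1 class. Stromal classes were 652 reticular-like, 674 osteoblast-like, 106 osteocyte-like, 36 reticular/osteoblast-like, 36 chondrocyte-like, 43 tenocyte/synovial-like, 63 periosteal fibroblast-like, 120 mural-like and 29 endothelial-like nuclei. The reticular/osteoblast-like nuclei passed both of those lists, and whether they were doublets was not tested. Where a class is set against the other stromal classes or nuclei, endothelial-like nuclei are left out of that other side. Blood-like nuclei numbered 153 erythroid-like, 147 granulocyte-like, 208 macrophage/osteoclast-like and 166 B-lymphoid-like, and are the background here. Of the markers listed, 12 of 12 reticular, 14 of 14 osteoblast, 6 of 8 osteocyte, 15 of 15 chondrocyte and 11 of 11 endothelial genes were detected in their class. The reporter tdTomato stood at 167 to 375 counts per 1000000 UMIs (CPM) in 8 of the stromal classes, at 67.8 CPM in endothelial-like nuclei and at 22.0 to 42.9 CPM in blood-like nuclei. Free RNA, taken from the 62603 barcodes of low content (100 to 400 UMIs, ATAC counts below 500), gives each member some UMIs in every class. The ratio to free RNA has no gap at the limit, and 71 reticular-like and 216 osteoblast-like nuclei lay between 3 and 4 times. The median chondrocyte-like nucleus held 25 UMIs of the cartilage list and 13.5 of the osteoblast list, and the median osteocyte-like nucleus 20 of the osteocyte and 15 of the osteoblast list. The median nucleus held 1647.5 UMIs in the reticular-like, 4967.5 in the osteoblast-like, 5798 in the osteocyte-like and 9092.5 in the chondrocyte-like class.

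The members held 20782 UMIs, and 4 genes had 84.4% of them. Cdh2 held 33.0%, Cdh11 25.3%, Pcdh7 18.6% and Pcdh9 7.56%. By family, Cdh genes held 64.4%, protocadherins outside the clusters 31.1%, Pcdhb genes 1.85%, Pcdhga genes 1.66% and Pcdhgb genes 0.948%, and the 12 Pcdha genes held 4 UMIs. Epithelial Cdh1 (E-cadherin) held 3 UMIs and Cdh3 (P-cadherin) 5. Levels are also given per length as a description, since UMIs count molecules and need not scale with exon length. Over gated nuclei and per kilobase of exon Cdh2 stood at 61.1, Cdh11 at 39.2, Pcdh7 at 27.1, Pcdh9 at 12.9, Cdh15 at 6.54, Pcdh18 at 4.31, Pcdh19 at 1.81, Cdh10 at 1.08 and Cdh13 at 0.964 CPM. Per kilobase of the whole gene span, which nuclear RNA with introns also reads, Cdh11 at 2.27 CPM and Cdh2 at 2.24 CPM were close, and Pcdh9, whose gene spans 877.27 kb, stood at 0.0998 CPM.

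**Figure D1:**
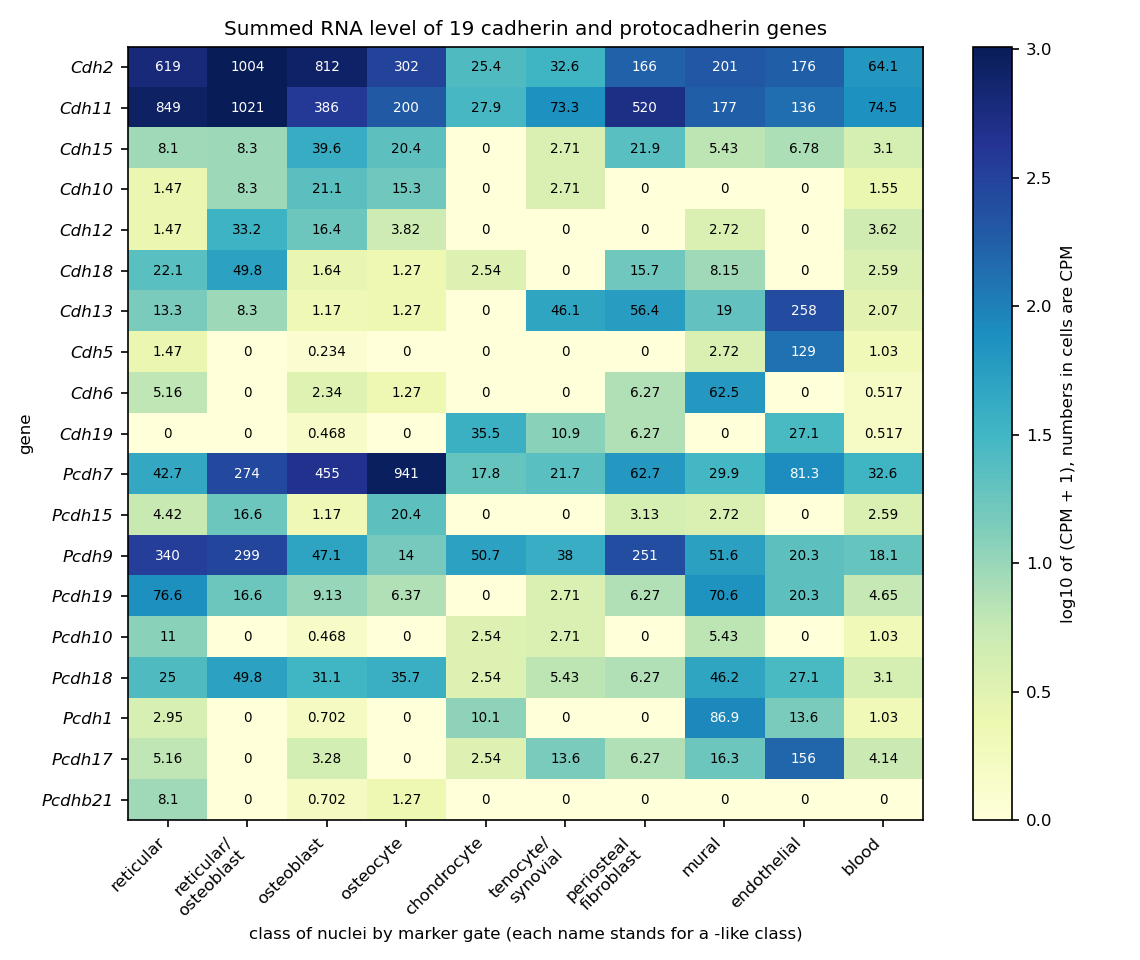
Level of 19 cadherin and protocadherin genes (rows) in 9 stromal classes and all blood-like nuclei (columns), coloured by log10 of CPM plus 1 with the CPM in each cell. Cdh2 and Cdh11 were highest in reticular/osteoblast-like nuclei at 1004 and 1021 CPM, with intervals that met those of osteoblast-like and reticular-like nuclei in turn. Pcdh7 was highest in osteocyte-like nuclei at 941 CPM, and Cdh5, Cdh13 and Pcdh17 in endothelial-like nuclei.

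Cdh2 and Cdh11 were both high in reticular-like and osteoblast-like nuclei, in opposite order. Cdh2 stood at 812 CPM (95% interval 785 to 839) in osteoblast-like and 619 (577 to 662) in reticular-like nuclei. Cdh11 stood at 849 CPM (801 to 900) in reticular-like and 386 (367 to 405) in osteoblast-like nuclei. Both were lower in osteocyte-like nuclei, the cells buried in bone matrix, at 302 CPM (265 to 343) for Cdh2 and 200 (170 to 234) for Cdh11.

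Cdh2 (ENSMUSG00000024304, chromosome 18, 16588877 to 16809246, minus strand, GENCODE M21 on mm10) was at its highest level of 1004 CPM (833 to 1200) in the 36 reticular/osteoblast-like nuclei, whose interval met that of osteoblast-like nuclei. Its level was 201 CPM (158 to 252) in mural-like, 176 (115 to 258) in endothelial-like, 166 (124 to 217) in periosteal fibroblast-like, 32.6 (16.8 to 56.9) in tenocyte/synovial-like and 25.4 (12.2 to 46.6) in chondrocyte-like nuclei. Blood-like nuclei gave 64.1 CPM (53.3 to 76.4) and free RNA 196 CPM, so cartilage- and tendon-gated nuclei lay below the blood-like background. The mural-like, endothelial-like and periosteal fibroblast-like levels lay above the blood-like level, but their intervals included the free RNA level. Of the 26 UMIs in endothelial-like nuclei, 23 were in 1 nucleus. The model Gm15485 lies antisense to Cdh2, as 4932441J04Rik does to Pcdh7, and the sources used here do not state whether counting used strand. Neighbouring classes in the order of Cdh2 levels had overlapping intervals in 4 of 8 pairs.

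Cdh11 (ENSMUSG00000031673, chromosome 8, 102632095 to 102785642, minus strand) reached 1021 CPM in reticular/osteoblast-like nuclei, whose interval met that of reticular-like nuclei. It stood at 520 CPM (444 to 606) in periosteal fibroblast-like nuclei, which lay above osteoblast-like nuclei. Levels were 177 CPM (136 to 225) in mural-like, 136 (82.8 to 209) in endothelial-like, 73.3 (48.3 to 107) in tenocyte/synovial-like and 27.9 (13.9 to 49.9) in chondrocyte-like nuclei, against 74.5 (62.8 to 87.7) in blood-like nuclei. Free RNA stood at 349 CPM, close to the osteoblast-like level. The osteocyte-like, mural-like, endothelial-like, tenocyte/synovial-like and chondrocyte-like levels of Cdh11 lay below free RNA. When the 36 nuclei of the reticular/osteoblast-like class were left out, reticular-like nuclei led for Cdh11 and osteoblast-like nuclei for Cdh2.

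**Figure D2:**
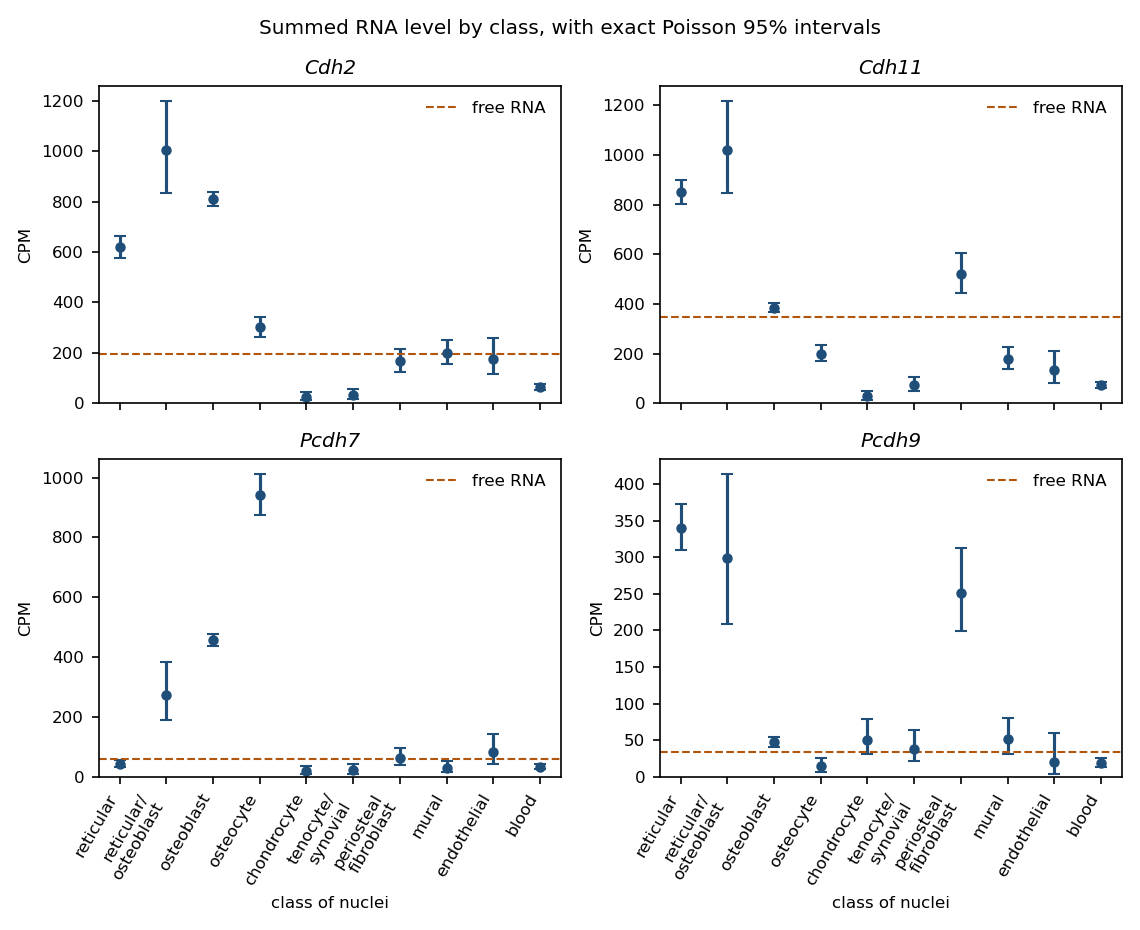
Summed level in CPM (vertical axis, linear) of Cdh2, Cdh11, Pcdh7 and Pcdh9 in each class (horizontal axis), with points for the level, bars for exact Poisson 95% intervals and a dashed line for free RNA. Pcdh7 stands at 941 CPM in osteocyte-like nuclei where Pcdh9 is at 14.0, and Pcdh9 stands at 340 CPM in reticular-like nuclei where Pcdh7 is at 42.7.

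A share within the pair does not depend on the total UMIs of a class. Cdh2 made up 67.8% (66.5 to 69.1%) of Cdh2 and Cdh11 UMIs in osteoblast-like, 60.2% (55.1 to 65.0%) in osteocyte-like, 42.1% (40.0 to 44.4%) in reticular-like and 24.2% (18.7 to 30.4%) in periosteal fibroblast-like nuclei. The reticular/osteoblast-like class lay between, at 49.6% (43.2 to 56.0%), while free RNA held 36.0% (34.9 to 37.0%). Its nuclei passed both lists and may be doublets, and its deepest nucleus held 16.2% of its UMIs. Both genes were seen in the same nucleus in 405 of 674 osteoblast-like nuclei (60.1%), 266 of 652 reticular-like (40.8%), 35 of 106 osteocyte-like (33.0%), 20 of 63 periosteal fibroblast-like (31.7%) and 15 of 120 mural-like nuclei (12.5%), against 24 of 674 blood-like nuclei (3.56%). With every nucleus thinned to 500 UMIs these shares were 5.64% in osteoblast-like, 9.05% in reticular-like and 0.943% in osteocyte-like nuclei, 0 in the periosteal fibroblast-like and mural-like classes and 0.148% in blood-like nuclei, so the order of osteoblast-like and reticular-like nuclei, with median depths of 4967.5 and 1647.5 UMIs, turned with thinning. A Cdh2 UMI was found in 79.4% of osteoblast-like nuclei, 53.8% of reticular-like and 50.9% of osteocyte-like nuclei, against 11.7% of blood-like nuclei, whose types had median depths of 1434 to 2846 UMIs.

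ATAC counts in peaks over the gene and 3 kb upstream were, for Cdh2 with 45 peaks, 316 CPM (309 to 322) in osteoblast-like, 272 (266 to 279) in reticular-like and 216 (203 to 229) in osteocyte-like nuclei, against 36.4 in blood-like nuclei. For Cdh11 with 18 peaks they were 98.5 CPM (94.9 to 102) in osteoblast-like, 94.96 (91.1 to 98.9) in reticular-like and 72.3 (65.1 to 80) in osteocyte-like nuclei, against 13.0 in blood-like nuclei, so the osteoblast-like and reticular-like intervals met although the RNA differed. Single peaks had larger ratios. In Cdh2 an intronic peak 203 kb from the start site had 11.9 CPM (10.7 to 13.3) in osteoblast-like against 1.20 (0.895 to 1.58) in the other stromal nuclei, while the peak nearest the start had 45.7 (43.3 to 48.3) against 34.9 (33.1 to 36.7), a ratio of 1.31 in the same class. In Cdh11 an intronic peak 44.5 kb from the start had 14.7 CPM (13.2 to 16.3) in reticular-like against 1.76 (1.39 to 2.19) in other stromal nuclei, a ratio of 8.31, while the start peak had 33.8 (31.5 to 36.2) against 29.2 (27.6 to 30.8), a ratio of 1.16 in the same class.

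The sequence at the centre of the Cdh11 peak is shown because it had the highest ratio among the peaks of the gene. Printed peaks were chosen for the highest ratio in any class among those of a gene with at least 50 counts, except at Cdh15, where the peak is the highest in the class with the highest RNA level, so their ratios are a description. It is read from the mm10 assembly on the strand of the gene, and capitals mark matches to 7 short motifs searched on both strands: RUNX TGTGGT, EBF (TCCC and GGGA 2 bases apart), AP-1 TGANTCA, MEF2 (CTA and TAG 4 bases apart), ETS CAGGAAG, TEAD GGAATG and GC box GGGCGG. It holds 1 TEAD motif, as do 12.8% of all 203495 peak centres of this length and 18.4% of those at least 4-fold higher in reticular-like nuclei. Of all peaks with enough counts, 9.01% were at least 4-fold higher in reticular-like nuclei.
Cdh11 chr8:102741060-102741260: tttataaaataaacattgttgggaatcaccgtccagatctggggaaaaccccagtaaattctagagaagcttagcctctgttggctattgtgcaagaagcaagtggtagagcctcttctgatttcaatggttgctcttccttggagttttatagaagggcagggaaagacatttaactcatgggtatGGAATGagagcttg

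Pcdh7 and Pcdh9, the most read protocadherins, ran in opposite directions from marrow stroma to bone cells. Pcdh7 stood at 941 CPM in osteocyte-like, 455 (435 to 476) in osteoblast-like and 42.7 (32.4 to 55.2) in reticular-like nuclei. Pcdh9 stood at 14.0 CPM (7 to 25.1), 47.1 (40.8 to 54) and 340 (310 to 373) in the same order. Both proteins are homophilic adhesion molecules best known from the nervous system.

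Pcdh7 (ENSMUSG00000029108, chromosome 5, 57717967 to 58133230, plus strand) led in osteocyte-like nuclei with an interval apart from that of every other class. Its level was 274 CPM (188 to 385) in reticular/osteoblast-like nuclei, where 24 of 33 UMIs were in 1 nucleus, and at 81.3 (42 to 142) in endothelial-like nuclei, where 10 of 12 were in 1 nucleus. The remaining classes held 17.8 to 62.7 CPM, which is the range of blood-like nuclei (32.6, 25 to 41.7) and free RNA (58.5), so Pcdh7 was not detectable there above background. A UMI was found in 81.1% of osteocyte-like, 65.6% of osteoblast-like and 5.52% of reticular-like nuclei, against 5.93% of blood-like nuclei. With every nucleus thinned to 500 UMIs these shares were 25.5%, 16.6%, 2.61% and 0.742%, the same order among the stromal classes.

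Pcdh9 (ENSMUSG00000055421, chromosome 14, 93013410 to 93890679, minus strand) was at 299 CPM (209 to 414) in reticular/osteoblast-like and 251 (199 to 312) in periosteal fibroblast-like nuclei, where 23 of 80 UMIs were in 1 nucleus. Levels were 50.7 CPM (31 to 78.3) in chondrocyte-like, 51.6 (31.1 to 80.6) in mural-like, 38.0 (20.8 to 63.7) in tenocyte/synovial-like and 20.3 (4.19 to 59.4) in endothelial-like nuclei, against 18.1 (12.6 to 25.2) in blood-like nuclei and 33.7 CPM in free RNA. Of the 20 chondrocyte-like UMIs 11 were in 1 nucleus. Its RNA was found in 30.5% of reticular-like nuclei, and in 15.3% after thinning. The top classes of Pcdh9 had overlapping intervals, so their order is not set.

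The shares within this pair differed more between classes than those of Cdh2 and Cdh11. Pcdh7 was 98.5% (97.4 to 99.3%) of Pcdh7 and Pcdh9 UMIs in osteocyte-like, 90.6% (89.3 to 91.8%) in osteoblast-like, 47.8% (35.6 to 60.2%) in reticular/osteoblast-like, 20% (12.7 to 29.2%) in periosteal fibroblast-like and 11.2% (8.58 to 14.2%) in reticular-like nuclei. As given above, most reticular/osteoblast-like Pcdh7 UMIs were in 1 nucleus, as was a large part of the periosteal fibroblast-like Pcdh9 UMIs. The intervals take UMIs as independent, so the shares of these classes are less certain than printed. Blood-like nuclei (64.3%, 54.0 to 73.7%) and free RNA (63.4%, 60.8 to 66.0%) had overlapping shares, away from those of the bone and reticular classes. Among osteoblast-like nuclei 377 had only Pcdh7, 27 only Pcdh9 and 65 (9.64%) both, whereas among reticular-like nuclei 25 had only Pcdh7, 188 only Pcdh9 and 11 (1.69%) both, against 7 of 674 blood-like nuclei (1.04%) with both. Thinned to 500 UMIs, 2 osteoblast-like, 1 reticular-like and 0 blood-like nuclei held both. Pcdh7 and Cdh2 were read together in 382 osteoblast-like (56.7%), 47 osteocyte-like (44.3%) and 20 reticular-like nuclei (3.07%), against 12 blood-like nuclei (1.78%). After thinning, 41 osteoblast-like nuclei (6.08%), 1 osteocyte-like and 3 reticular-like nuclei held both, and 0 blood-like nuclei did.

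**Figure D3:**
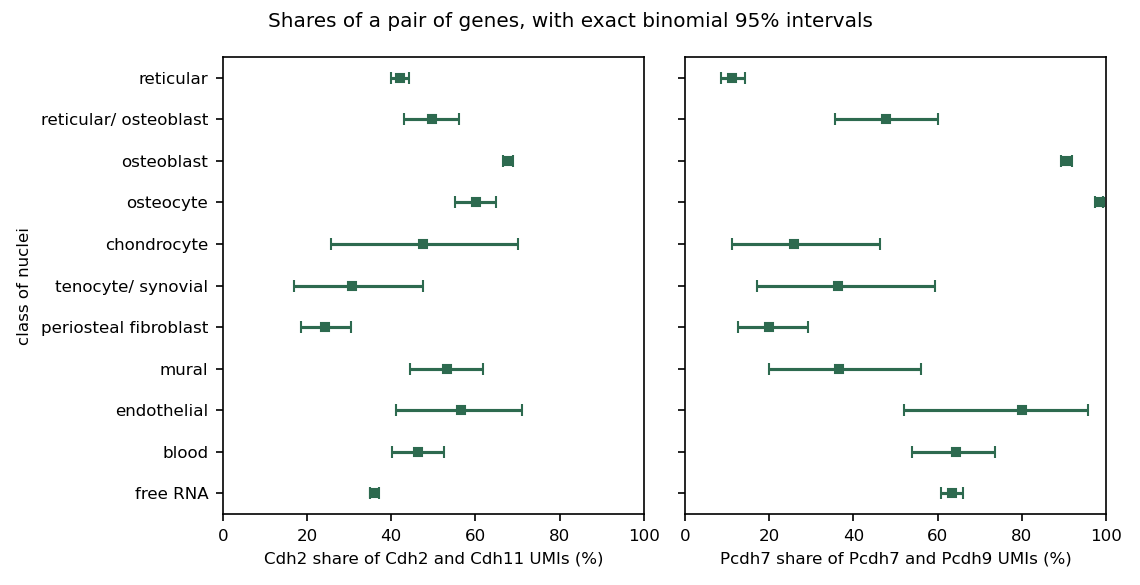
Share of Cdh2 in Cdh2 plus Cdh11 UMIs (left) and of Pcdh7 in Pcdh7 plus Pcdh9 UMIs (right), in percent on the horizontal axis, per class and in free RNA (rows), with exact binomial 95% intervals as bars. The Pcdh7 share runs from 11.2% in reticular-like to 98.5% in osteocyte-like nuclei and the Cdh2 share from 24.2% in periosteal fibroblast-like to 67.8% in osteoblast-like nuclei.

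Over the gene and 3 kb upstream, Pcdh7 had 36 peaks with 215 CPM (203 to 228) in osteocyte-like, 206 (201 to 211) in osteoblast-like, 89.8 (74.7 to 107) in reticular/osteoblast-like and 49.2 (46.5 to 52.1) in reticular-like nuclei, against 45.4 in blood-like nuclei. Osteocyte-like and osteoblast-like nuclei thus had like accessibility and unlike RNA. Pcdh9, with 33 peaks, had 93.5 CPM (89.7 to 97.4) in reticular-like, 84.7 (81.3 to 88.2) in osteoblast-like, 49.9 (43.9 to 56.4) in osteocyte-like and 16.1 in blood-like nuclei. The largest ratios again lay away from the start site. A Pcdh7 intron peak 315 kb from the start had 11.2 CPM (10.0 to 12.5) in osteoblast-like against 1.08 (0.794 to 1.45) in other stromal nuclei, and a peak 371.8 kb away had 5.06 (3.31 to 7.42) in osteocyte-like against 0.816 (0.611 to 1.07). At the Pcdh7 start the osteoblast-like level was 19.7 CPM (18.1 to 21.4) against 9.10 (8.22 to 10.1), and the osteocyte-like level was 23.4 CPM (19.4 to 27.9) against 12.5 (11.6 to 13.4). A Pcdh9 intron peak 389 kb from the start had 1.87 CPM (1.37 to 2.50) in reticular-like against 0.110 (0.0356 to 0.256), while the start peak had 24.7 against 22.1 CPM.

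The centres of these Pcdh7 and Pcdh9 peaks are shown for the same reason as that of Cdh11. The Pcdh7 sequence holds the RUNX motif at 2 positions and the ETS motif once, in capitals. RUNX motifs, to which Runx2, the transcription factor needed for osteoblast formation, can bind, were in 24.7% of all peak centres and in 35.1% of the centres at least 4-fold higher in osteoblast-like nuclei. Of the 36 Pcdh7 peaks 7 held it, and of the 33 Pcdh9 peaks 5 did. The Pcdh9 sequence holds none of the 7 motifs.
Pcdh7 chr5:58032875-58033075: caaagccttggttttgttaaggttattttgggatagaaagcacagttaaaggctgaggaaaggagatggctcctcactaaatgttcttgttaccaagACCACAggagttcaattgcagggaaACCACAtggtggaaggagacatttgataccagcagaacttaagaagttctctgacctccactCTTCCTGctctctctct
Pcdh9 chr14:93501193-93501393: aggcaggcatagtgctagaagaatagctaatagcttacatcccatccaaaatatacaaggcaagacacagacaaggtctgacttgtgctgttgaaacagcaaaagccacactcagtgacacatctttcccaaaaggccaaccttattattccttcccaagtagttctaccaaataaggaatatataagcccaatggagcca

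Cdh15, Cdh10 and Cdh12 were read mainly in osteoblast-like nuclei. Cdh15 (M-cadherin, ENSMUSG00000031962, chromosome 8, 122847966 to 122867397, plus strand), the cadherin of skeletal muscle progenitors, stood at 39.6 CPM (33.8 to 46) in osteoblast-like, 21.9 (8.82 to 45.2) in periosteal fibroblast-like, 20.4 (11.7 to 33.1) in osteocyte-like and 8.10 (4.04 to 14.5) in reticular-like nuclei, and at 0 to 8.30 in the other stromal classes. Blood-like nuclei held 3.10 CPM and free RNA 9.36. The list of 8 skeletal muscle markers held 1.40 CPM in osteoblast-like nuclei, 6 UMIs from 3 genes, and no barcode passed a muscle gate. Cdh10 (ENSMUSG00000022321, chromosome 15, 18818947 to 19014236, plus strand) stood at 21.1 CPM (16.9 to 25.9) in osteoblast-like and 15.3 (7.9 to 26.7) in osteocyte-like nuclei, where 10 of 12 UMIs were in 1 nucleus, and at 0 to 8.30 elsewhere in stroma. The osteoblast-like and osteocyte-like intervals of Cdh10 overlapped. Its leading class was osteocyte-like with at most 10% mitochondrial UMIs or, by the share of nuclei with a UMI, after thinning. It was tenocyte/synovial-like with the gate at 4 times free RNA or with gate markers below 1000 CPM of free RNA. Cdh12 stood at 16.4 CPM (12.8 to 20.7) in osteoblast-like and 3.82 in osteocyte-like nuclei, and its 33.2 CPM in the reticular/osteoblast-like class was 4 UMIs, so osteoblast-like was the one class with at least 10 UMIs. Cdh10 and Cdh12 are type II cadherins known mainly from the brain.

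Cdh15 was also more accessible in bone cells. Its 5 peaks held 111 CPM (107 to 115) in osteoblast-like, 93.7 (85.5 to 102) in osteocyte-like and 21.4 (19.6 to 23.3) in reticular-like nuclei, against 19.02 in blood-like nuclei. The peak at the start had 27.5 CPM (25.6 to 29.5) in osteoblast-like against 8.98 (8.10 to 9.93) in other stromal nuclei, and an intronic peak 5.51 kb away had 23.6 (21.9 to 25.5) against 5.80 (5.10 to 6.57). Cdh12 had 80.6 CPM (77.3 to 84) over 19 peaks in osteoblast-like and 15.9 in reticular-like nuclei. At Cdh10 the start peak was highest in tenocyte/synovial-like nuclei, where Cdh10 RNA was 2.71 CPM. It held 6.16 CPM (3.37 to 10.3, 14 counts) against 1.74 (1.44 to 2.08). The centre of this peak lies upstream of Cdh10, in an exon of the model C030047K22Rik, and which gene it serves was not tested. The Cdh15 gene model shares its strand with the overlapping model Gm20388, and its UMIs are uncertain to that extent. The centre of its intronic peak is printed with 1 GC box in capitals, a motif in 9.82% of peak centres.
Cdh15 chr8:122853378-122853578: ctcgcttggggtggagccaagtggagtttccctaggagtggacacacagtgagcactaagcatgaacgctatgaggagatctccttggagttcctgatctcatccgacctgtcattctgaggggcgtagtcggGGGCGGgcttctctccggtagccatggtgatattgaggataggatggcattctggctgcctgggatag

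Pcdh19, Cdh18 and Pcdh10 were read mainly in reticular-like nuclei. Pcdh19 (ENSMUSG00000051323, chromosome X, 133582860 to 133688987, minus strand), which acts with Cdh2 in adhesion, stood at 76.6 CPM (62.6 to 92.8) in reticular-like and 70.6 (46.1 to 103) in mural-like nuclei, and at 9.13 (6.49 to 12.5) in osteoblast-like nuclei. The reticular-like and mural-like intervals overlapped. Their order turned after thinning, where it is by the share of nuclei with a UMI. It also turned without mitochondrial UMIs and Gm42418 in the scaling, and with the mean of per-nucleus shares. Of the 104 reticular-like UMIs, 20 were in 1 nucleus of 1638 UMIs. It was at 6.37 CPM in osteocyte-like, 6.27 in periosteal fibroblast-like, 16.6 in reticular/osteoblast-like, 20.3 in endothelial-like, 2.71 in tenocyte/synovial-like, 0 in chondrocyte-like and 4.65 in blood-like nuclei. Cdh18 stood at 22.1 CPM (14.9 to 31.5) in reticular-like nuclei, at 49.8 (18.3 to 108) in reticular/osteoblast-like nuclei with 6 UMIs, at 15.7 (5.09 to 36.6) in periosteal fibroblast-like nuclei with 5 UMIs and at 1.64 in osteoblast-like nuclei. Pcdh10 stood at 11.05 CPM (6.18 to 18.2) in reticular-like and 0.468 in osteoblast-like nuclei, with 15 UMIs in the former. Reticular-like was the one class with at least 10 UMIs for Cdh18 and for Pcdh10, so their order among classes is not set.

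The Pcdh19 gene itself had even accessibility, 52.1 CPM in reticular-like, 52.2 in mural-like and 50.3 in osteoblast-like nuclei over 15 peaks, against 11.7 in blood-like nuclei. Its start peak gave a ratio of 0.945 in reticular-like against other stromal nuclei. An intronic peak 91.0 kb from the start had 2.28 CPM (1.72 to 2.96) against 0.285 (0.152 to 0.488). Its centre holds 2 AP-1 motifs, in capitals, which were in 15.8% of all peak centres and in 11.1% of those at least 4-fold higher in reticular-like nuclei.
Pcdh19 chrX:133597877-133598077: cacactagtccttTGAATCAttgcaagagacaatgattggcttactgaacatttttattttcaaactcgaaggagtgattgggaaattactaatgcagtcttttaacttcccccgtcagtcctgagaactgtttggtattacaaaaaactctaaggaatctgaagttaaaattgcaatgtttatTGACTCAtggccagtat

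Pcdh18 (ENSMUSG00000037892, chromosome 3, 49743296 to 49757325, minus strand) was spread over several classes. It stood at 46.2 CPM (26.9 to 73.9) in mural-like, 35.7 (23.7 to 51.6) in osteocyte-like, 31.1 (26.1 to 36.9) in osteoblast-like, 27.1 in endothelial-like and 25.04 (17.3 to 35) in reticular-like nuclei, with overlapping intervals, at 49.8 (18.3 to 108) in reticular/osteoblast-like nuclei, and at 2.54 to 6.27 in the cartilage, tendon and periosteal classes. Blood-like nuclei held 3.10 and free RNA 19.3 CPM. Its 4 peaks held 61.9 CPM in osteoblast-like, 56.5 in osteocyte-like, 40.2 in mural-like and 33.6 in reticular-like nuclei. An intronic peak 4.42 kb from the start had 25.7 CPM in osteoblast-like against 7.22 in other stromal nuclei.

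Vessel-associated classes carried their own set. Cdh5 (VE-cadherin), the adhesion protein of endothelial junctions, stood at 129 CPM (77.5 to 201) in endothelial-like nuclei, 19 UMIs in 44.8% of the 29 nuclei, and at most 2.72 CPM elsewhere in stroma. Cdh13 (T-cadherin, ENSMUSG00000031841, chromosome 8, 118283733 to 119324921, plus strand), which is held to the membrane by a lipid anchor, stood at 258 CPM (182 to 353) there. With at most 10% mitochondrial UMIs the periosteal fibroblast-like class led for Cdh13. Levels were 56.4 (33.4 to 89.1) in periosteal fibroblast-like, 46.1 (26.9 to 73.9) in tenocyte/synovial-like, 19.01 in mural-like, 13.3 (7.86 to 21) in reticular-like, 8.30 in reticular/osteoblast-like, 1.27 in osteocyte-like, 1.17 in osteoblast-like and 0 in chondrocyte-like nuclei. Pcdh17 stood at 156 CPM (98.8 to 234) in endothelial-like and 16.3 in mural-like nuclei, where all 6 UMIs were in 1 nucleus. By CPM osteoblast-like nuclei lay below mural-like nuclei for this gene. After thinning, classes were ordered by the share of nuclei with a UMI and not by CPM. On that measure osteoblast-like nuclei led for Pcdh17, with only 29 endothelial-like nuclei to compare.

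The deepest endothelial-like nucleus held 27.2% of the UMIs of its class and 861 UMIs of the osteoblast list beside 63 of the endothelial list, and 22 of the 38 Cdh13 UMIs. Without it the log2 ratio of Cdh13 against other stromal nuclei was 4.18 in place of 4.95, and no named member changed its leading class. The part of this nucleus in the endothelial-like levels of members led by other classes was not tested. The 7 peaks of Cdh5 held 97.4 CPM (80.3 to 117) in endothelial-like, at most 11.4 in other stromal and 30.5 in blood-like nuclei. Its intronic peak 20.4 kb from the start had 52.1 CPM (39.9 to 66.9) in endothelial-like against 0.456 (0.312 to 0.644) in other stromal nuclei, a ratio of 113, and its centre is printed with 1 AP-1 motif, found in 25.4% of peak centres at least 4-fold higher in endothelial-like nuclei. A Cdh13 intron peak 6.64 kb from the start had 12.8 CPM (7.17 to 21.1) against 0.628.
Cdh5 chr8:104121881-104122081: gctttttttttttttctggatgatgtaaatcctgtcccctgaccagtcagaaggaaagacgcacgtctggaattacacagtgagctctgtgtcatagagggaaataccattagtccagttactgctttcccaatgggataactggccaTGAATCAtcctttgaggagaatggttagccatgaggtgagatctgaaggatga

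Mural-like nuclei, the smooth muscle cells and pericytes around vessels, led for Cdh6 and Pcdh1. Cdh6 (K-cadherin) stood at 62.5 CPM (39.6 to 93.7), 23 UMIs, and at 0 to 6.27 in other stromal classes. Pcdh1 stood at 86.9 CPM (59.5 to 123), 32 UMIs, against 13.6 in endothelial-like and 10.1 in chondrocyte-like nuclei. The 9 peaks of Cdh6 held 40.4 CPM (34.5 to 47.2) in mural-like and 17.7 in reticular-like nuclei, and the 7 peaks of Pcdh1 held 86.6 in mural-like, 93.1 in endothelial-like and 47.8 in reticular-like nuclei.

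Cdh19 and Pcdh15 were read in few nuclei. Cdh19, a cadherin of Schwann cells and other neural crest derivatives, stood at 35.5 CPM (19.4 to 59.6) in chondrocyte-like nuclei, 14 UMIs of which 6 were in 1 nucleus, at 27.1 in endothelial-like nuclei (4 UMIs) and at 10.9 in tenocyte/synovial-like nuclei. Of its 86 UMIs 48 were in nuclei of no class, and 36 of these in 1 nucleus with 1983 UMIs of the cartilage list. The glia marker list of 7 genes, which does not hold Cdh19, stood at 63.4 CPM in chondrocyte-like nuclei, but 23 of its 25 UMIs there were S100b, a gene that cartilage also expresses, with 1 UMI of Sox10. Only 4 barcodes passed a glia gate. Pcdh15, a protein of the tip links in hair cells of the inner ear, stood at 20.4 CPM (11.7 to 33.1) in osteocyte-like nuclei, with 16 UMIs, and at 16.6 in reticular/osteoblast-like and 1.17 in osteoblast-like nuclei. No peak lay over the Cdh19 gene or the 3 kb before it.

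The clustered protocadherins were sparse. The 22 Pcdhb genes together stood at 60.4 CPM (48 to 75) in reticular-like, 28.0 (17.6 to 42.4) in osteocyte-like and 18.5 (14.6 to 23) in osteoblast-like nuclei, and the 18 Pcdhga and Pcdhgb genes at 58.2 (46.1 to 72.5), 51.0 (36.4 to 69.4) and 29.96 (25 to 35.6), against 8.79 in blood-like nuclei for either set. The Pcdhb set reached 124 CPM (69.7 to 205) in reticular/osteoblast-like nuclei, and the Pcdhg set 81.3 (42 to 142) in endothelial-like nuclei. Pcdhb21 stood at 8.10 CPM (4.04 to 14.5) in reticular-like nuclei with 11 UMIs and at 0 to 1.27 in other stromal classes. The models of the Pcdhg genes overlap on 1 strand through their shared exons, and those of Pcdhb21 and Pcdhb22 overlap as well, so how UMIs were divided among the genes of a cluster is uncertain. The other 22 described genes, 19 of them clustered, held 12 to 42 UMIs over gated nuclei each, at 1.19 to 4.17 CPM, and Cdh4, Cdh23 and Cdh24 were the remaining 3.

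Most nuclei showed no clustered protocadherin at this depth. The 385 Pcdhb UMIs lay in 315 nuclei (7.03%), and of the 53 nuclei with at least 2 UMIs, 36 held at least 2 Pcdhb genes and 17 repeated 1 gene. The 543 Pcdhg UMIs lay in 434 nuclei (9.69%), and of 81 nuclei with at least 2 UMIs, 73 held at least 2 genes and 8 repeated 1. The largest number of genes of 1 set in a nucleus was 4.

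**Figure D4:**
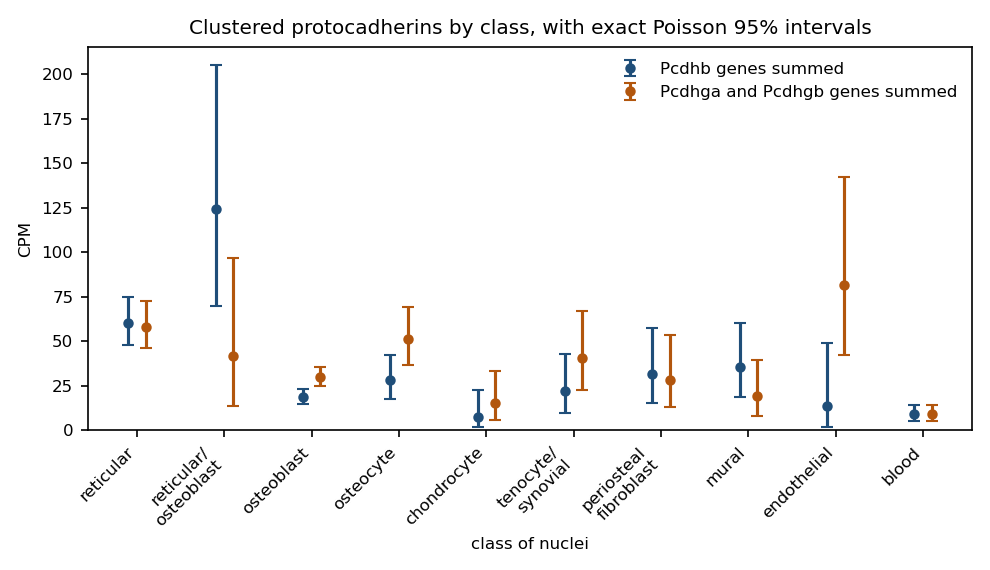
Summed level in CPM (vertical axis, linear) of the Pcdhb genes (blue) and the Pcdhga and Pcdhgb genes (orange) in each class (horizontal axis), with exact Poisson 95% intervals as bars. Reticular-like nuclei stood at 60.4 and 58.2 CPM, osteoblast-like nuclei at 18.5 and 29.96, and the widest bars belong to the classes with the fewest UMIs.

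The members were then counted against all genes, each class against the other stromal classes summed, without endothelial-like nuclei. Called means a ratio of 2 or more either way and a summed total of 20 UMIs or more. In the reticular-like, osteoblast-like and osteocyte-like comparisons 28 of the 41 members had enough UMIs. In reticular-like nuclei 8 were higher (Cdh11, Cdh18, Pcdh9, Pcdh10, Pcdh19, Pcdhb16, Pcdhb17 and Pcdhb20), where 23.4% of all 11334 genes were, and 6 were lower (Cdh10, Cdh12, Cdh15, Cdh19, Cdh23 and Pcdh7), where 8.54% were. In osteoblast-like nuclei 4 were higher (Cdh2, Cdh10, Cdh12 and Cdh15), against 3.49% of all genes, and 14 were lower, against 24.0%. In osteocyte-like nuclei 4 were higher (Pcdh7, Pcdh15, Pcdhga11 and Pcdhgb4), against 4.29%, and 12 were lower, Cdh2, Cdh11 and Pcdh9 among them, against 20.7%. The median log2 ratio of the members was 0.42, -0.96 and -0.42 in the 3 classes, and that of all genes 0.45, -0.42 and -0.30. Leaving mitochondrial UMIs and the abundant transcript Gm42418 out of the scaling moved the median of all genes by -0.20 and 0.16 in reticular-like and osteoblast-like nuclei. Median mitochondrial UMIs were 8.93% in reticular-like, 19.8% in osteoblast-like and 17.7% in osteocyte-like nuclei. Their part in these counts was not tested on its own, since the limit given next also left fewer members with enough UMIs. Limited to nuclei with at most 10% mitochondrial UMIs, 11 members had enough UMIs. In reticular-like nuclei 4 were then higher and 4 lower, against 23.2% and 8.98% of all genes. In osteoblast-like nuclei 4 were higher and 4 lower, against 4.38% and 29.6%, and in osteocyte-like nuclei 2 were higher and 6 lower, against 7.86% and 26.8%.

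Across the 9 stromal classes accessibility was compared with RNA for the 18 named members with peaks. For 17 of them the correlation of log2 RNA with log2 accessibility over the 9 classes, given as a description with the same libraries behind every point, was above 0, with a median of 0.62, a range of -0.48 to 0.87 and 10 at 0.5 or more. The rank correlation was below 0 for Cdh5, Cdh10, Pcdh17 and Pcdhb21. The leading class of a member was the one with the highest RNA among classes holding at least 10 of its UMIs. Cdh12, Cdh18 and Pcdh18 had a higher CPM in reticular/osteoblast-like nuclei, on fewer than 10 UMIs. In the leading class, accessibility over the gene was at least 2-fold that of the other stromal nuclei for 5 members (Cdh5, Cdh12, Cdh15, Cdh6 and Pcdh1). It was above that of the other stromal nuclei for 17 of 18. The median log2 ratio there was 2.71 for RNA and 0.42 for accessibility. The class was chosen by its RNA, and members were named in part for a 4-fold RNA ratio, so a larger ratio in RNA is in part set by this choice. Near the start site, in peaks within 1 kb, 2 of the 15 members with such a peak reached 2-fold, Cdh13 at 2.99 and Cdh15 at 3.06.

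**Figure D5:**
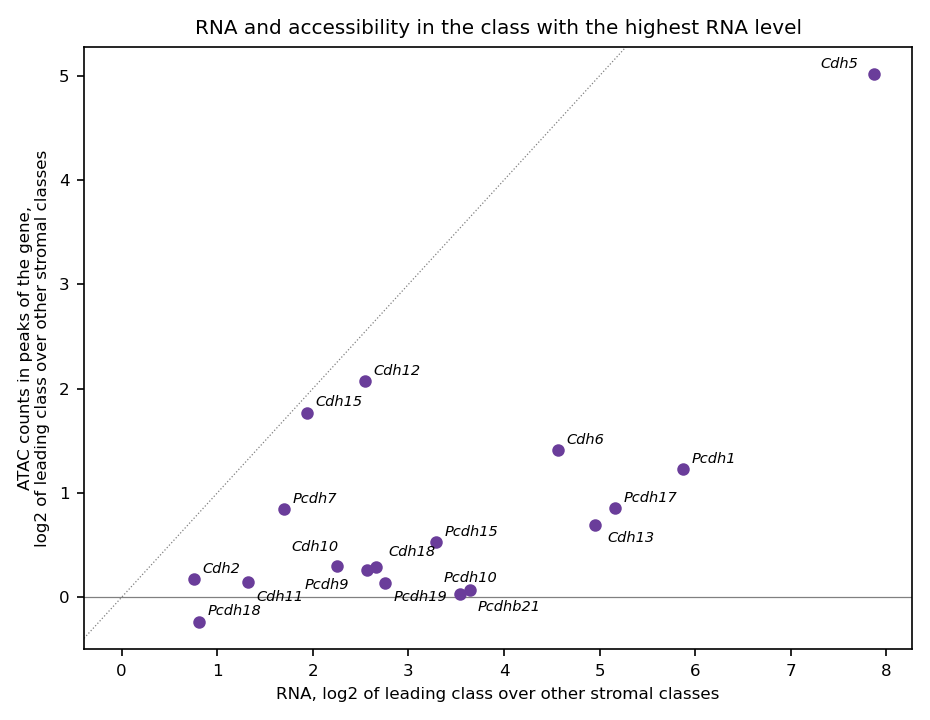
Log2 ratio of the leading class over other stromal nuclei in RNA (horizontal axis) and in ATAC counts over the gene and 3 kb upstream (vertical axis) for 18 named members, 1 point each, with a dotted line where the ratios are equal. The leading class had the highest RNA among classes with at least 10 UMIs of the gene. All points lie below the line, which the choice of class and members by RNA in part sets, Cdh5 with 7.87 in RNA stands highest, and Cdh12 and Cdh15 lie closest to the line among genes above 1.5 in RNA.

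Genes that work with cadherins were counted from lists chosen with earlier results of these data known. Of 22 catenins and junction partners 17 had enough UMIs, and in osteoblast-like nuclei 0 were higher and 10 lower, against 3.49% and 24.0% of all genes, and in reticular-like nuclei 6 were higher and 4 lower, against 23.4% and 8.54%. Ctnna3, the alpha-T-catenin of heart and other muscle, stood at 274 CPM (223 to 333) in mural-like against 2.36 (1.40 to 3.73) in other stromal nuclei, Ctnnd2 at 32.6 against 2.76 in the same class, Plekha7 at 25.4 in chondrocyte-like against 1.58, and the junction scaffold Magi1 at 1028 (959 to 1102) in osteocyte-like against 74.9. Of 23 other cadherin superfamily genes 9 had enough UMIs, with 5 higher and 2 lower in reticular-like and 2 higher and 5 lower in osteoblast-like nuclei, to be read against the same shares. Clstn2, a calsyntenin, stood at 62.6 CPM (50 to 77.4) and the receptor Ret at 14.7 in reticular-like against 4.68 and 1.36. Fat4 stood at 3.82 CPM in osteocyte-like against 41.7, and Fat3, a giant cadherin, at 22.8 (10.4 to 43.3) in chondrocyte-like against 678. Of 8 cadherin-cleaving proteases and receptor partners, 2 were higher and 1 lower in reticular-like nuclei, where 23.4% and 8.54% of all genes were, and Mmp14, a membrane metalloproteinase, stood at 1241 CPM (1122 to 1369) in periosteal fibroblast-like against 293. Adam15 stood at 176 and Fgfr1 at 102 CPM in endothelial-like against 42.8 and 276, and Adam10 at 25.4 in chondrocyte-like against 96.7.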

How the data were processed

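The authors made the deposited raw counts with Cell Ranger ARC 2.0.0 on mm10, per the file headers: RNA UMI counts for 32293 genes and ATAC counts for 203545 peaks over 728634 barcodes, from 1 library of each kind. Nothing was averaged or normalised before deposit. The members and lists were chosen with earlier results of these data known, and the rule of the marker gate was set after seeing the data.

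Barcodes with at least 500 nonmitochondrial UMIs and 1000 peak counts were kept. A nucleus passed a list with at least 4 UMIs from at least 2 markers whose level in free RNA was below 500 CPM, and at least 3 times the UMIs expected if all its nonmitochondrial RNA were free. Related classes (osteoblast and osteocyte, chondrocyte and tenocyte, tenocyte and periosteal) went to the higher ratio, reticular with osteoblast formed its own class, and 239 nuclei passing other lists together were left out as possible doublets. Doublets of a reticular-like and an osteoblast-like nucleus would fall in the reticular/osteoblast-like class. The 1808 nuclei passing none were not classed.

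Counts were summed per class, as CPM with exact Poisson and shares with exact Clopper-Pearson 95% intervals. Ratios had 0.5 counts added, and were called at a ratio of 2 or more where the UMIs of both sides summed to 20 or more. Depth was 35460453 UMIs and 191398837 ATAC counts in all. Intervals cover counting error only. Members with at least 100 UMIs in gated nuclei were described one by one, others were named where a class held at least 10 UMIs at 4-fold, and partner lists gave up to 4 genes of largest ratio. Coordinates are from GENCODE M21, which matched all 86 members. The fold calls were tested on simulated data. Alternatives were another gate ratio, at most 10% mitochondrial UMIs, Leiden clusters, Scrublet (scanpy 1.11.5), free RNA subtraction, thinning to 500 UMIs and other minimums and scalings.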

Additional observations from a re-analysis of the deposited data

How the results depend on the processing

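Counts of members called moved by over 1.5 times under some settings. With at most 10% mitochondrial UMIs, 4 were higher in reticular-like nuclei in place of 8, 4 lower in osteoblast-like in place of 14, and 2 higher and 6 lower in osteocyte-like in place of 4 and 12. With a minimum of 50 UMIs the same counts were 4, 4, 1 and 7. With no minimum, which keeps genes with 1 UMI, 32 were higher in reticular-like, 8 higher and 38 lower in osteoblast-like and 18 higher in osteocyte-like nuclei. Against the mean of the other classes 4 were higher in reticular-like nuclei, and Leiden clusters gave 8 higher in osteocyte-like nuclei. These counts are of 28 members with enough UMIs, 11 under the mitochondrial limit or the minimum of 50, 70 with no minimum and 33 with Leiden clusters. The shares of all genes moved too: higher in reticular-like nuclei were 23.2% under the mitochondrial limit, 29.8% with no minimum and 10.5% against the mean of classes, in place of 23.4%. The leading class was again the highest among classes with at least 10 UMIs. Levels set it, except after thinning, where the share of nuclei with a UMI did. Of 19 named members, 11 kept their leading class with at most 10% mitochondrial UMIs, 13 with the gate at 2 times free RNA, 16 with Leiden clusters and 18 after removal of the 161 highest Scrublet scores. Leiden clusters held no reticular/osteoblast-like, chondrocyte-like or tenocyte/synovial-like class, so Cdh2, Cdh11 and Cdh19 could not keep theirs there. Cdh5, Cdh6, Cdh19, Pcdh10 and Pcdhb21 then had no class with 10 UMIs under the mitochondrial limit, which the smaller number of nuclei sets. The leading class of Cdh10 moved in 4 settings, and that of Cdh13 and Pcdh17 in 1 each, the mitochondrial limit and thinning. That of Cdh2 moved to osteoblast-like with Leiden clusters, which held no reticular/osteoblast-like class, and without mitochondrial UMIs and Gm42418 in the scaling. It also did so with gate markers below 1000 CPM of free RNA and with the reticular/osteoblast-like nuclei left out. The leading classes of Cdh11, Pcdh9, Pcdh18 and Pcdh19 moved in more than 1 setting each. Peaks within 1 kb of the start gave 2 of 15 members at 2-fold (Cdh13 and Cdh15) in place of 5 of 18, and a minimum of 50 UMIs would describe 24 members in place of 41. Of 226 single-gene values under alternatives, 186 moved by less than their interval and 40 by more. A change of direction was counted only where the main log2 ratio was at least 1 in size, and 0 such values changed direction. The gate markers below 1000 CPM of free RNA, the reticular/osteoblast-like nuclei left out and the deepest endothelial-like nucleus left out were alternatives chosen after seeing the data. No paired comparison between samples was possible because there is no second sample. The RNA and ATAC counts of the same nuclei were compared by class and not nucleus by nucleus. Classes of 29 to 63 nuclei limit what can be read for low members.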
